A study of Mus musculus with 16 samples.

Results

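The comparison set mouse CD4 T cells kept in iTreg-inducing culture until day 1 against day 1 Th0 cells that had been given TGF for only 1 hr or 3 hr. It used 6 of the 16 arrays of the series: 2 of iTreg culture, 2 of Th0 cells with 3 hr of TGF and 2 of Th0 cells with 1 hr of TGF. Within each condition 1 array came from Erk2-deficient cells (called KO) and 1 from wild-type cells (WT), all of strain C57/BL6 per the labels. The 6 arrays were chosen by the culture and genotype in their labels, and they lay on a single chip. The series was made to study how Erk2, a kinase of the ERK pathway downstream of the T cell receptor, regulates Th1 and iTreg differentiation. The sources used here do not give how Erk2 was removed, the TGF dose or the content of the iTreg medium. Nothing in the labels says whether the cultures came from separate animals, so p-values here reflect only how far these arrays spread, which may be technical. With 1 array per genotype and condition, the spread in the main comparison is how far the genotypes differ in their differences between conditions. It therefore takes in any part of the response that depends on genotype, and no spread within a genotype and condition was measured.

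TGF (transforming growth factor beta) binds a pair of serine/threonine kinase receptors, which phosphorylate Smad transcription factors that move to the nucleus. Some Smad target genes answer directly, while others need newly made proteins or changes in chromatin. In CD4 T cells stimulated through the T cell receptor, TGF together with interleukin-2 induces Foxp3, a transcription factor that defines regulatory T cells, and opposes differentiation into Th1 cells. Th0 culture is neutral culture, with stimulation but without a signal for one lineage. The labels do not say what the iTreg medium held, so the length of a TGF signal and other differences between the media cannot be told apart.

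Levels below are log2 normalized intensities, and a difference of 1 is 2-fold. Testing was limited to the 13113 of 25697 probes that 2 or more of the 6 arrays detected above background. A change was called at an adjusted p below 0.05 in limma, with genotype as a block. Median intensity was 64.4 to 70.9 per array and 12287 to 12526 probes were above background. The KO iTreg array stood apart from the rest, at -26.2 on the first principal component (47.1% of the variance), against -3.36 to 11.8 for the other 5 arrays. Results are therefore also given without it, where the WT iTreg array alone stands for iTreg culture and is assumed to vary like the other groups. WT samples held the odd and KO samples the even positions of the chip, which leaves genotype and position confounded: they cannot be told apart. The cultures held successive positions as well, iTreg at C and D, the 1 hr pulse at E and F and the 3 hr pulse at G and H. Culture and position along the chip therefore cannot be told apart either. The genotype labels were not checked here. The 12 CD4 T cell identity markers measured had 0 calls in limma (0 at an unadjusted p below 0.05), against 5.14% of all genes. With 12 genes, 0 calls is near that share. Their median difference was 0.06, and Cd4 itself differed by 0.01. Their summed intensity was 34272.5 and 47926.3 in the 2 iTreg arrays, on either side of the pulse arrays (36267.6 to 39273.8). The median of their KO minus WT difference in this comparison was 0.33, against -0.01 over all genes. Of the 12, 1 was called lower without the KO iTreg array, with a median of -0.10.

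Cells kept in iTreg culture differed from cells given a short TGF pulse in 637 of 13113 probes (4.86%), 347 higher (2.65%) and 290 lower (2.21%) in iTreg culture, representing 506 genes. Large changes were mostly rises: of the 71 called probes that changed at least 2-fold, 58 were higher and 13 lower. Emp1, Foxp3 and Ctsw had the largest rises, Nrn1, Tg and Gbp2 the largest falls, and 4 guanylate-binding proteins were among the 20 largest falls. Of the called probes 632 moved in 1 direction in all 4 comparisons of an iTreg array with a pulse array of its own genotype. The share of all probes that did so is not given here. Both iTreg arrays lay outside the range of the 4 pulse arrays for 545 of the 637, against 2853 (21.8%) of the 13113 probes tested. The probes were called on these same arrays, so neither agreement is separate support for the calls. The count was 752 without the KO iTreg array (375 higher, 377 lower) and 2029 without the WT iTreg array, and 366, 306 and 319 without the WT 1 hr, KO 1 hr and KO 3 hr pulse arrays. Within KO cells 93 probes were at least 2-fold higher and 28 lower than the mean of the pulses, and within WT cells 58 were higher and 21 lower, with no test. In these bulk samples fewer cells of a type and less RNA per cell cannot be told apart.

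**Figure D1:**
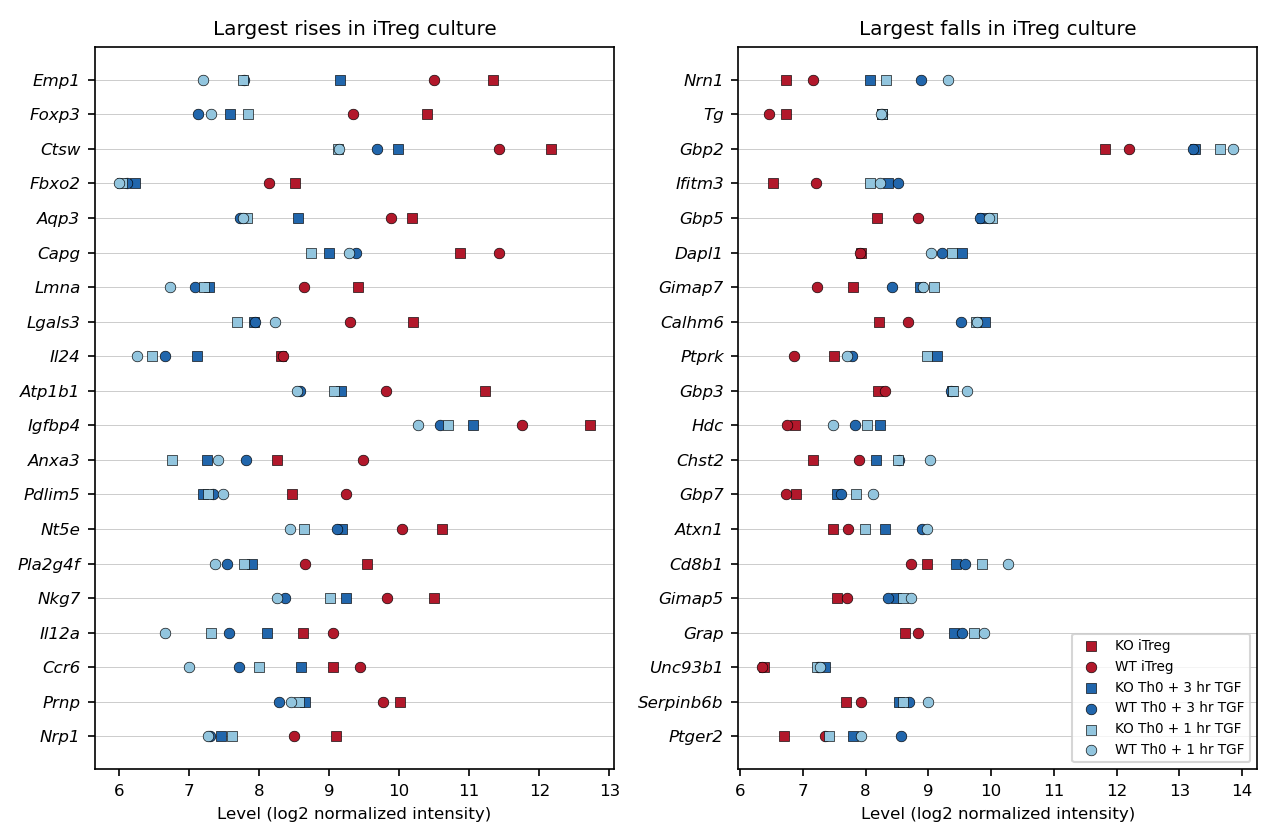
Levels (x axis, log2 normalized intensity) of the 20 genes with the largest rises (left) and the 20 with the largest falls (right) among called probes, in each of the 6 arrays. Red symbols are iTreg arrays and blue symbols TGF pulse arrays, squares KO and circles WT; Foxp3 lay at 10.39 and 9.34 in the iTreg arrays and between 7.13 and 7.84 in the pulse arrays.

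Foxp3 (gene ID 20371, chromosome X) had a level of 10.39 in KO and 9.34 in WT iTreg cells, against 7.58 and 7.13 in the KO and WT cells with 3 hr of TGF and 7.84 and 7.31 with 1 hr. Both iTreg arrays were above all 4 pulse arrays. The mean was 7.36 after 3 hr and 7.58 after 1 hr of TGF, and 7.36 in the Th0 arrays, which were on the other chip. The difference was 2.40 (5.28-fold, SE 0.12, adjusted p = 3.29e-06), and the other 2 probes gave smaller rises, of which the larger was 2.28. In KO cells it was 2.68 and in WT cells 2.12, and 3 hr minus 1 hr of TGF gave -0.22 (adjusted p = 0.801).

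Emp1, a membrane protein of the tetraspan type, had the largest difference. Its levels were 11.35 and 10.50 in KO and WT iTreg cells, against 9.15 and 7.78 after 3 hr and 7.78 and 7.21 after 1 hr of TGF. Emp1 was thus 2.94 higher in iTreg culture (7.70-fold, SE 0.14, adjusted p = 1.87e-06), by 2.88 in KO and 3.01 in WT cells.
Ctsw, a cathepsin protease of lymphocytes, had levels of 12.17 and 11.42 in KO and WT iTreg cells, against 9.98 and 9.68 after 3 hr and 9.12 and 9.14 after 1 hr of TGF. It rose by 2.31 (4.97-fold, SE 0.13, adjusted p = 7.83e-06). Fbxo2, a ubiquitin ligase subunit that binds glycoproteins, was above background in both iTreg arrays (8.51 in KO, 8.15 in WT) and in none of the pulse arrays (at most 6.23). As a bound, taken against the higher of the dimmest probe above background and its own level on each pulse array, it was at least 4.06-fold higher (adjusted p = 1.87e-06).

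The other large rises included genes of the cytoskeleton, the nuclear envelope and the cell surface. Capg, an actin-capping protein, rose by 2.04 (10.86 in KO and 11.42 in WT iTreg cells, against 8.74 to 9.38 in the pulse arrays). Lmna, which encodes lamins A and C of the nuclear envelope, rose on all 5 of its probes, by 1.12 to 1.95. Aqp3, a channel for water and glycerol, rose by 2.06, Lgals3, the lectin galectin-3, by 1.80, and Atp1b1, a subunit of the sodium pump, by 1.68.
Secreted proteins and a receptor were in the same group: Il24, a cytokine of the IL-10 family (1.70), Il12a, which encodes a chain shared by the cytokines IL-12 and IL-35 (1.43), and Ccr6, a chemokine receptor (1.42). Ccr6 differed by 0.75 in KO and 2.08 in WT cells, and the difference between these was not called. Igfbp4, which binds insulin-like growth factors, rose by 1.59, Anxa3 by 1.55, Pla2g4f by 1.45, Nkg7, a protein of cytotoxic granules, by 1.43, the prion protein gene Prnp by 1.40 and Nrp1, a co-receptor of semaphorins, by 1.39. Pdlim5 rose by 1.53 on its brightest probe, whereas its other probe differed by -0.01 (adjusted p = 0.969). The 20 rises and 20 falls in the plot of the largest changes were chosen for the same direction in both genotypes. Their direction without the KO iTreg array was thus fixed by that choice. In that fit the WT iTreg array stands alone and the spread comes from the pulse arrays, so a kept call is no separate support. Of 102 called genes, these 40 and the called members of the lists below, all 102 kept their direction without the KO iTreg array and 17 lost their call. The 17 that lost their call were Il12rb1, Tnfrsf9, Tnfrsf1b, Lef1, Socs3, Isg15, Psmb9, Pdk1, Idi1, Rrs1, Ube2c, Gtse1, Ei24, H2-DMa, Icos, Nr4a3 and Ifng. Others stayed called but moved by more than 1.5 times: without that array the difference was 0.71 for Ifit3, 0.55 for Il18r1, 0.49 for S100a8, 0.58 for Gpr83, 0.38 for Tsc22d3, 0.40 for Spsb1, 0.73 for Gadd45b, -0.87 for Gimap6, -0.44 for Btla and -0.42 for Cd200.

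The falls were led by Nrn1, the gene of neuritin, and Tg, which encodes the thyroid hormone precursor thyroglobulin. Nrn1 had levels of 6.73 and 7.17 in KO and WT iTreg cells, against 8.08 and 8.88 after 3 hr and 8.33 and 9.31 after 1 hr of TGF, and fell by 1.70 (SE 0.11, adjusted p = 1.65e-05). Tg had 6.73 and 6.47 in KO and WT iTreg cells, against 8.25 to 8.27 in all 4 pulse arrays, and fell by 1.66 (SE 0.09, adjusted p = 7.83e-06). The 4 pulse arrays were nearly identical for Tg, and both iTreg arrays were far below them.
Dapl1 fell by 1.37, Ptprk, a receptor tyrosine phosphatase, by 1.23, Hdc, the enzyme that makes histamine, by 1.08, and Ptger2, a prostaglandin E2 receptor, by 0.89. The mean of Ptger2 was 7.03 in iTreg and 7.39 in day 1 Th1 arrays, 7.67 after 1 hr and 8.19 after 3 hr of TGF. In the day 1 Th0 arrays, on the other chip, it was 7.32. Gimap7 (difference -1.31) and Gimap5 (-0.92), GTPases of the lymphocyte Gimap family, fell as well. The rest of the 20 largest falls were Calhm6 (-1.29), Chst2 (-1.03), Atxn1 (-0.94), Cd8b1 (-0.94), Grap (-0.91), Unc93b1, which escorts Toll-like receptors to endosomes (-0.91), and Serpinb6b (-0.90), beside Ifitm3 and the guanylate-binding proteins.

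Guanylate-binding proteins are GTPases that interferon-gamma induces and that act in defence within the cell. Gbp2, Gbp3, Gbp5 and Gbp7 were all called lower in iTreg culture. Their promoters are shown because these neighbouring genes moved together and because interferon-induced genes often carry known elements there. The windows, from RefSeq on GRCm38.p6, run from 250 bases before to 50 bases after the start of the gene, all on the plus strand: chr3:142620413-142620712 for Gbp2, chr3:142559794-142560093 for Gbp3 (the first of 2 windows), chr3:142496684-142496983 for Gbp5 and chr3:142530086-142530385 for Gbp7. Capitals mark each match to the core of the interferon-stimulated response element (GAAA, any 2 bases, then GAAA, on either strand) or to the gamma-activated site (TTCNNNGAA, the same on both strands).
Gbp2: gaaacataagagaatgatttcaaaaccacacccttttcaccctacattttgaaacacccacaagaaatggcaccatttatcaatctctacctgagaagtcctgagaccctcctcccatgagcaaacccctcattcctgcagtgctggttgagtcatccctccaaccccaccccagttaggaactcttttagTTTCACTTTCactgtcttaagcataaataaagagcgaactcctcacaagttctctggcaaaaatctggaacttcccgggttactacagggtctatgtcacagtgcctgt
Gbp3: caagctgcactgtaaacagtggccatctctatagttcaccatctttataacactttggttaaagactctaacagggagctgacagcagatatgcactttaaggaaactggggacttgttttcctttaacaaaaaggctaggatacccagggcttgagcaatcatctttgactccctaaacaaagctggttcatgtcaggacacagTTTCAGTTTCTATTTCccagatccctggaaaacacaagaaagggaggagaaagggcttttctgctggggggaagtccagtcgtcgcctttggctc
Gbp5: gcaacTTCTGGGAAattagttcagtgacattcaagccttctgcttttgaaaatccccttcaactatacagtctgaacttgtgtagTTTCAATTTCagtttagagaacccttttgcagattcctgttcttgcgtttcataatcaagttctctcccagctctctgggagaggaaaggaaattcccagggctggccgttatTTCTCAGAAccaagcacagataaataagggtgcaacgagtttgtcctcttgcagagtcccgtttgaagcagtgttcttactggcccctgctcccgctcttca
Gbp7: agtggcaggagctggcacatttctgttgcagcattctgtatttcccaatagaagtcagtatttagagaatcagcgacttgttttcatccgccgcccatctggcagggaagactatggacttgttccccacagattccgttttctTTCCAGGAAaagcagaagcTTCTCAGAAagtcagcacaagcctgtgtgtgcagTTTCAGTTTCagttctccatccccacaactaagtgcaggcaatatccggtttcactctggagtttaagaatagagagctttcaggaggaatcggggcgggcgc
The response element core was found in all 4 windows, starting 59 bases before the gene start in Gbp2, 45 and 39 in Gbp3 (overlapping), 165 in Gbp5 and 53 in Gbp7. It occurred in 3.44% (1131) of 32851 promoter windows of the same length. The gamma-activated site was found in the windows of Gbp5 and Gbp7, 2 matches each, and in 8.30% (2726) of all windows. A match is a description of the letters and not a measured binding site.

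Gbp2 had levels of 11.81 and 12.19 in KO and WT iTreg cells, against 13.25 and 13.22 after 3 hr and 13.64 and 13.86 after 1 hr of TGF. It fell by 1.49 (2.81-fold, SE 0.10, adjusted p = 2.12e-05), by 1.64 in KO and 1.34 in WT cells, and its other 2 probes gave -1.46 and -0.99. Gbp5 had 8.19 and 8.83 in KO and WT iTreg cells, against 9.83 to 10.01 in the pulse arrays, and fell by 1.41 (SE 0.14, adjusted p = 0.000178). Both iTreg arrays were below all pulse arrays for both genes.
Gbp3 fell by 1.18 and Gbp7 by 0.97, and the other probe of Gbp7 by 0.36. Members of this family are similar in sequence, and hybridisation of one gene's RNA to another's probe was not tested. Of 13 interferon-gamma induced genes measured, 6 fell and none rose (5.14% of 8951 genes were called), with a median of -0.29 against -0.01 over all genes. Beside the 3 Gbp genes these were the immunoproteasome subunits Psmb8 (-0.62) and Psmb9 (-0.36) and the GTPase Tgtp1 (-0.40). Tap1, Irgm1 and Cxcl9 differed by -0.06, -0.03 and -0.08 and were not called. Psmb9 and Tgtp1 lost their calls under 11 of 23 alternatives each. Without the KO iTreg array 6 of the 13 were called lower and none higher, with a median of -0.36. Of 12 type I interferon response genes, Ifit3 rose by 1.32 (1.93 in KO, 0.71 in WT) and Isg20 (-0.62) and Isg15 (-0.45) fell, with a median of -0.01. Ifitm3, a restriction factor for virus entry, fell by 1.42.

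Of 21 regulatory T cell genes measured, 10 rose and none fell (47.6%, against 5.14% of all genes), with a median of 0.36 against -0.01 over all genes. Beside Foxp3, Capg and Nrp1 these were Nt5e (CD73, which makes adenosine; 1.48), Itgae (CD103, an integrin chain; 1.17), the Ikaros family factors Ikzf4 (1.11) and Ikzf2 (0.36), the receptor Gpr83 (0.92), and the TNF receptor family members Tnfrsf9 (0.80) and Tnfrsf1b (0.44). Ikzf2 was called against neither pulse alone and lost its call under 10 of 22 alternatives. Its mean was 6.57 in iTreg culture, 6.27 after 3 hr and 6.15 after 1 hr of TGF. Tnfrsf1b lost its call under 8 and Tnfrsf9 under 7 of 23 alternatives. Ctla4 (0.29), Il2ra (0.18), Tnfrsf18 (0.12) and Il10 (-0.04) were not called. Itgae had levels of 7.73 and 7.62 in KO and WT iTreg cells, against 6.35 to 6.56 in the pulse arrays, and of its 4 probes 3 were called, with differences of 0.49 to 1.24. Without the KO iTreg array 10 of the 21 were called higher and none lower, with a median of 0.34. Tnfrsf9 was then at 0.34 (adjusted p = 0.0939) and Tnfrsf1b at 0.25 (adjusted p = 0.317), both no longer called.

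Of 29 TGF and Smad response genes, 9 rose and 2 fell (37.9%, against 5.14% of all genes), with a median of 0.19 against -0.01 over all genes. Among the receptors, Tgfbr1 rose by 0.79 (adjusted p = 0.000501), whereas Tgfbr2 differed by 0.49 (adjusted p = 0.057). Furin, a convertase that cleaves the TGF precursor, rose by 1.06, with 12.51 and 12.49 in KO and WT iTreg cells, against 11.23 to 11.55 in the pulse arrays. Id1 rose by 0.89 and Id3 fell by 0.62; both encode inhibitors of helix-loop-helix factors.
Spsb1 (0.60) and Gadd45b (0.48) rose, and Bcl2l11, the death factor Bim, fell by 0.74 on its brightest probe. Another Bcl2l11 probe (adjusted p = 0.997) and another Tgfbr1 probe (0.30, adjusted p = 0.149) were not called. Gadd45b lost its call under 11 of 23 alternatives, and Spsb1 and Bcl2l11 under 3 each. Gadd45b, Id3 and Bcl2l11 were called against the 1 hr pulse only, and Spsb1 against the 3 hr pulse only. Skil, a feedback inhibitor of Smads, had 10.50 and 10.48 in KO and WT iTreg cells, against 10.15 and 10.38 after 3 hr and 10.29 and 10.53 after 1 hr of TGF. Its groups overlapped and the difference of 0.15 was not called (adjusted p = 0.443). Smad7 was not analysed here. Without the KO iTreg array 9 of the 29 were called higher and 3 lower.

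The lineage genes of other T helper cells did not move one way. Of 17 Th1 genes 4 fell and 3 rose (41.2%, against 5.14% of all genes), with a median of -0.32. The genes that fell were the IL-12 receptor chains Il12rb1 (-0.84) and Il12rb2 (-0.46), perforin (Prf1, -0.60) and Ifng (-0.40). Another probe of Prf1 differed by -0.08 (adjusted p = 0.721). Il12rb1 differed by -1.39 in KO and -0.28 in WT cells and lost its call under 9 of 23 alternatives, and Il12rb2 lost its call under 7. Ifng lost its call under 13 of 23 alternatives, among them the fit without the KO iTreg array (-0.27, adjusted p = 0.235), and its other probe gave -0.19 (adjusted p = 0.333). The genes that rose were the receptor Il18r1 (0.93), the chemokine Xcl1 (0.90) and the cytokine Lta (0.76). These 3 rises were called against each pulse alone. Of the falls, Il12rb1, Il12rb2 and Ifng were called against the 1 hr pulse only, and Prf1 against the 3 hr pulse only. Tbx21, the lineage factor of Th1 cells, had 8.69 in KO and 9.87 in WT iTreg cells, against 9.95 and 10.22 after 3 hr and 9.69 and 9.88 after 1 hr of TGF. The difference of -0.66 missed the threshold (adjusted p = 0.0551), with -1.14 in KO and -0.18 in WT cells. Gata3, the lineage factor of Th2 cells, fell by 0.49 (adjusted p = 0.00888), with 9.99 and 8.98 in KO and WT iTreg cells, against 10.45 and 9.47 after 3 hr and 10.43 and 9.55 after 1 hr. Of 10 Th2 genes Il24 and Ccr8 (0.95) rose (30% called, with Gata3). Of 8 Th17 genes Ccr6 and Rora (0.74) rose and none fell (25%).

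**Figure D2:**
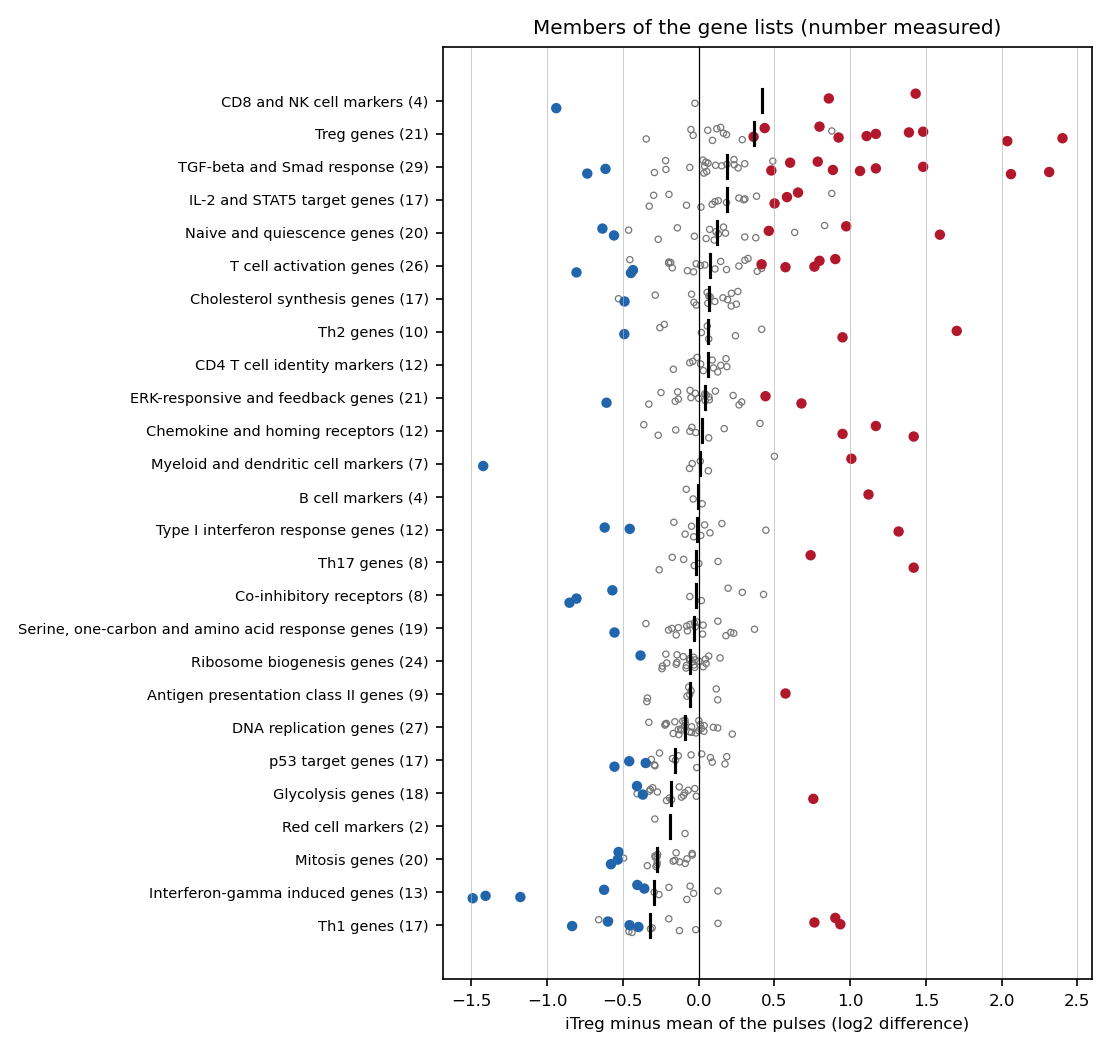
Difference of iTreg culture from the mean of the TGF pulses (x axis, log2) for each measured gene of 26 lists, with the number measured in brackets. Filled points passed the test (red higher, blue lower), open points did not, and bars are list medians, from 0.42 for CD8 and NK cell markers to -0.32 for Th1 genes.

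Of 26 T cell activation genes 5 rose and 3 fell (30.8%, against 5.14% of all genes), with a median of 0.07. Beside Xcl1, Lta and Tnfrsf9 the transcription factors Irf8 (0.57) and Nr4a3 (0.42) rose, and Icos (-0.43), Bhlhe40 (-0.45) and Cd200 fell. Another probe of Icos (-0.37) and of Nr4a3 (0.24) was not called. Of the called members, Xcl1, Lta and Tnfrsf9 were called against the 3 hr pulse alone, and all but Tnfrsf9 against the 1 hr pulse. Of 17 IL-2 and STAT5 target genes, the inhibitor of cytokine signalling Socs3 (0.66), Osm (0.58) and Cish (0.50) rose and none fell (17.6%). Leaving out the KO iTreg array gave 5 of these 17 higher and 2 lower, and Socs3 was at 0.26 (adjusted p = 0.281). Of 8 co-inhibitory receptors Btla (-0.85), Cd200 (-0.81) and Lag3 (-0.57) fell (37.5%). Btla and Cd200 differed by -1.26 and -1.19 in KO cells, and by -0.44 and -0.42 in WT cells. Against the 1 hr pulse alone Btla, Cd200 and Lag3 were called lower and Cd96 higher (50%, against 3.54% of all genes). Against the 3 hr pulse alone only Lag3 was called (12.5%, against 3.74% of all genes). ERK-responsive genes included rises of the phosphatase Dusp4 (0.68) and of Ier3 (0.44) and a fall of the phosphatase Dusp6 (-0.61). The same genes were called against the 1 hr pulse alone, but only Dusp6 against the 3 hr pulse (4.76%, against 3.74% of all genes). Of this list 21 were measured and 14.3% called, with a median of 0.04. Without the KO iTreg array 2 of these 21 were called higher and 4 lower. Of 20 naive and quiescence genes 3 rose (Igfbp4, Tsc22d3 with 0.97 and Lef1 with 0.46) and 2 fell (Satb1 with -0.64 and Gimap6 with -0.56), against 3 higher and 6 lower without the KO iTreg array. Called members made 25% of the list with all arrays, and its median of 0.12 was -0.07 without that array. Tsc22d3 and Lef1 were called against the 3 hr pulse only, Satb1 and Gimap6 against the 1 hr pulse only, and Igfbp4 against each. Among the IL-2 and STAT5 targets, Socs3 and Cish were called against the 3 hr pulse only.

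Lists of metabolism, growth and p53 targets had 0 to 3 called members each, against 5.14% of all genes. Among 18 glycolysis genes the enolase Eno3 rose by 0.76, and Tpi1 (-0.41, other probe 0.12 and not called) and Pdk1 (-0.37) fell, which makes 16.7% of the list. Idi1 fell by 0.49 among 17 cholesterol synthesis genes. Ddit4, an inhibitor of mTORC1, was 0.56 lower than the pulses among 19 genes of serine synthesis and the amino acid response. The mean of Ddit4 was 9.44 in both iTreg and Th1 arrays, 9.81 after 1 hr and 10.20 after 3 hr of TGF. In the Th0 arrays, on the other chip, it was 9.24. The cholesterol list had 2 called higher and 0 lower without the KO iTreg array. Of 24 ribosome biogenesis genes Rrs1 fell by 0.39, and of 27 DNA replication genes 0 were called in limma (3 at an unadjusted p below 0.05). The cholesterol (5.88%), serine (5.26%) and ribosome (4.17%) lists were near the share over all genes. Calls were lost under 13 of 23 alternatives for Rrs1, 11 for Idi1, 10 for Pdk1, 8 for Tpi1, 2 for Eno3 and 1 for Ddit4. Among the p53 targets that follow, Ei24 lost its call under 11, Gtse1 under 7 and Bbc3 under 3. The mean of Bbc3 was 8.55 in iTreg and 8.73 in Th1 arrays, 9.03 after 1 hr and 9.18 after 3 hr of TGF. In the Th0 arrays, on the other chip, it was 8.47. Of 17 p53 target genes Bbc3 (-0.56), Gtse1 (-0.46) and Ei24 (-0.35) fell (17.6%), against 1 without the KO iTreg array, and the other 2 probes of Bbc3 gave -0.01 and -0.11.

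Markers of other cells were measured in the same arrays, where 5.14% of all genes were called. Of 10 CD8 and NK cell markers on the array 4 were measured, where Nkg7 (1.43) and Klrd1 (0.86) rose and Cd8b1 fell by 0.94. Cd8a, Ncr1, Klrk1, Gzma, Gzmk and Klra1 were not above background, and the summed intensity of the 4 was 1583 to 2318 in the iTreg arrays and 1294 to 1753 in the pulse arrays. Of 4 measured B cell markers Fcmr rose by 1.12, while Cd79a, Pax5 and Cd22 were not above background; the sums were 474 to 566 in iTreg and 340 to 422 in pulse arrays. Of 7 myeloid markers S100a8 rose by 1.01 and Ifitm3 fell, with sums of 2190 to 2498 in iTreg and 2116 to 2396 in pulse arrays, and Cd14, Itgam and Itgax were not above background. The 2 red cell markers measured were not called, at a lowest adjusted p of 0.3 (174 to 430 in iTreg and 170 to 529 in pulse arrays). In the class II list of 9 genes H2-DMa was called at 0.57, with H2-Ab1 at -0.06. H2-DMa lost its call under 16 of 23 alternatives, and without the KO iTreg array (0.28) the list had 0 called higher and 1 lower. The part of such cells in the results was not tested.

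The next question was how the genes stood relative to each pulse length. These comparisons share the iTreg arrays, and their values are given side by side only. Against the 1 hr pulse, 434 probes were called (3.31%), 249 higher (1.9%) and 185 lower (1.41%) in iTreg culture. Against the 3 hr pulse 455 were called (3.47%), 224 higher (1.71%) and 231 lower (1.76%). The counts were 1644 and 1959 without the WT iTreg array, and 718 and 702 without the KO iTreg array. Leaving out the KO or WT 1 hr array gave 163 or 138 against 1 hr, and leaving out the KO or WT 3 hr array gave 86 or 159 against 3 hr.

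Among the large rises, some genes were at nearly the same level after both pulses. Itgae was 1.22 above the 1 hr and 1.12 above the 3 hr pulse, Capg 2.13 and 1.95, Lmna 2.06 and 1.84, Nrp1 1.35 and 1.42, and Prnp 1.38 and 1.42. Other genes had means closer to iTreg culture after the longer pulse. For those given next, 3 hr minus 1 hr was not called (adjusted p 0.0757 to 0.259 in limma). Ctsw was 2.66 above the 1 hr and 1.96 above the 3 hr pulse, Nt5e 1.78 and 1.18, Emp1 3.43 and 2.46, and Il12a 1.85 and 1.00. Nt5e had 10.61 and 10.04 in KO and WT iTreg cells, against 9.18 and 9.12 after 3 hr and 8.65 and 8.44 after 1 hr, and 3 hr minus 1 hr gave 0.61 (adjusted p = 0.205). In the Th0 arrays, which were on the other chip so that chip and culture cannot be told apart, the mean was 7.34 for Nt5e, 8.29 for Ctsw and 6.67 for Emp1.

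**Figure D3:**
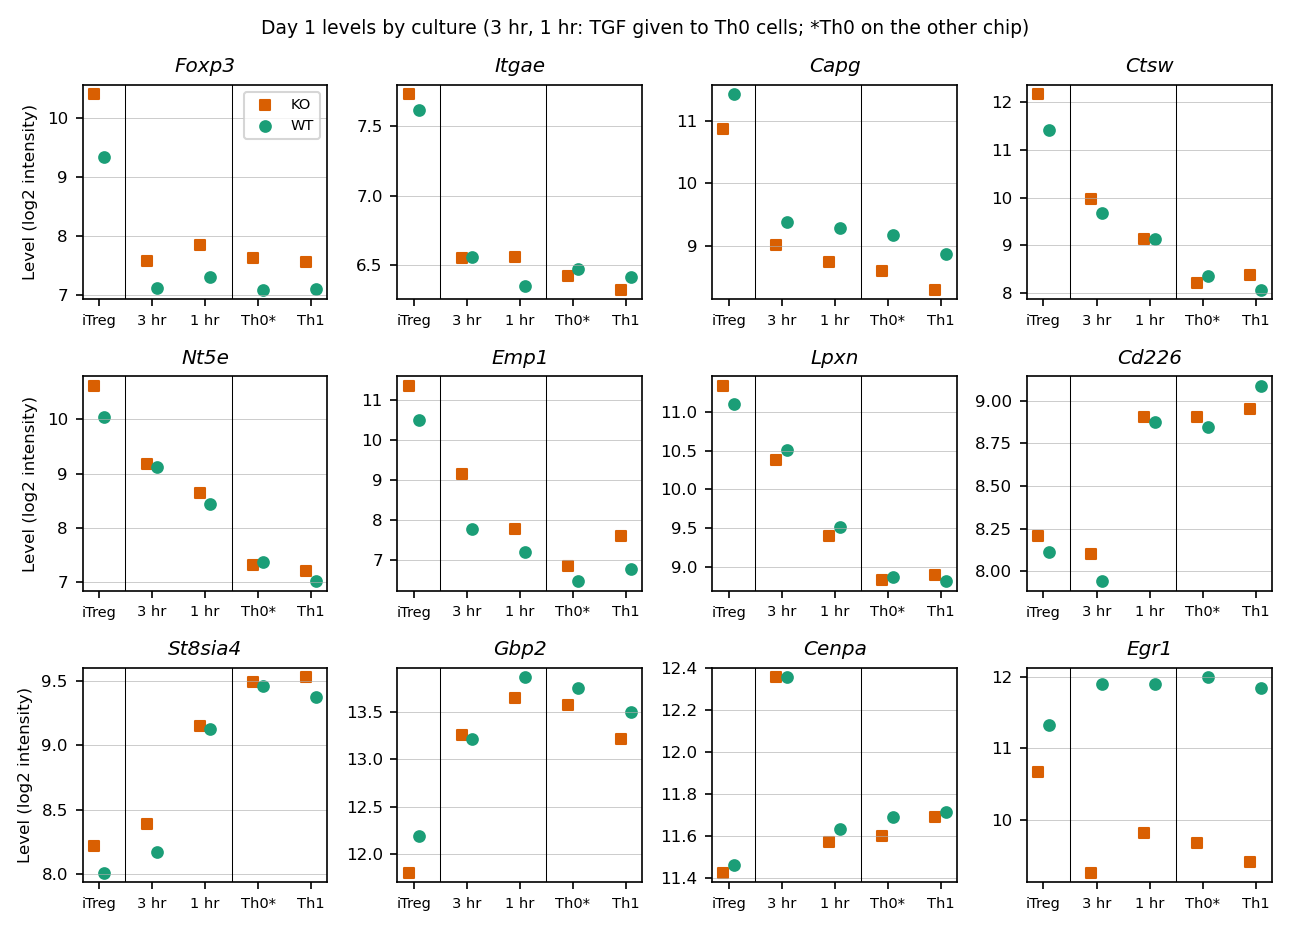
Levels (y axis, log2 normalized intensity) of 12 genes in the day 1 arrays of iTreg culture, Th0 cells with 3 hr and 1 hr of TGF, Th0 cells (on the other chip) and Th1 cells; squares are KO and circles WT, 1 array each. Foxp3 and Itgae were high in the iTreg arrays alone, Lpxn was intermediate after 3 hr, and Cd226 and St8sia4 were about as low after 3 hr as in iTreg culture.

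Between the pulses themselves, 11 probes were called for 3 hr minus 1 hr (0.0839%), 9 higher (0.0686%) and 2 lower (0.0153%), against 937 at an unadjusted p below 0.05. With arrays scaled to equal medians instead, 16 were higher and 11 lower. The count was 445 when either iTreg array was left out, and 0 without any one of the 4 pulse arrays (486 to 639 at an unadjusted p below 0.05). Lpxn, an adaptor of focal adhesions, had 11.34 and 11.10 in KO and WT iTreg cells, 10.38 and 10.51 after 3 hr and 9.40 and 9.52 after 1 hr. It rose by 0.98 between the pulses (adjusted p = 0.0169) and was a further 0.78 higher in iTreg culture than after 3 hr (adjusted p = 0.0053). Apol9b (0.88 between the pulses, and iTreg culture 0.67 above 3 hr) and Arhgap24, a GTPase-activating protein (0.81 and 0.48), followed the same order, and Tubb6, a beta tubulin, rose by 0.94 between the pulses.
Cd226, an activating receptor, had 8.20 and 8.11 in KO and WT iTreg cells, 8.10 and 7.94 after 3 hr and 8.91 and 8.88 after 1 hr. It fell by 0.87 between the pulses (adjusted p = 0.0169), and iTreg culture differed from 3 hr by 0.14 (adjusted p = 0.544). St8sia4, a polysialyltransferase, likewise fell by 0.86 between the pulses and differed by -0.17 between iTreg culture and 3 hr (adjusted p = 0.468). For these genes the other probes were not called: they gave -0.63 and -0.06 for Cd226 and -0.87 for St8sia4 (adjusted p = 0.0654), and 0.17 for Arhgap24. Tmem184b rose by 0.72 between the pulses and differed by -0.08 between iTreg culture and 3 hr (adjusted p = 0.755).

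Mitosis genes did not follow that order. Of 20 measured, 8 were lower in iTreg culture than after 3 hr of TGF and none was higher (40%, against 3.74% of all genes), with a median of -0.38. Against 1 hr 0 were called (median -0.07, lowest adjusted p = 0.256 in limma). There 3.54% of all genes were called, so 0 of 20 is near that share. The 8 were Ube2c, a ubiquitin-conjugating enzyme of the anaphase-promoting complex (-0.99), the centromeric histone Cenpa (-0.91), cyclin A2 (Ccna2, -0.87), the kinases Aurka (-0.57) and Plk1 (-0.54), Birc5 (-0.50), the complex's activator Cdc20 (-0.50) and the kinesin Kif22 (-0.49). Cenpa had 11.42 and 11.46 in KO and WT iTreg cells, 12.35 and 12.35 after 3 hr and 11.57 and 11.63 after 1 hr, so the 3 hr arrays were high and the others alike. Cenpa (0.76) and Ube2c (0.92) were called higher for 3 hr minus 1 hr, where the list's median was 0.29. Of the 8, Ube2c and Cenpa kept their calls under all 21 alternatives, Ccna2 lost its call under 1, and the rest under 7 or 8. Without the KO iTreg array 3 of the 20 were called lower than after 3 hr, with a median of -0.33. In the main comparison Ccna2 (-0.58), Cenpa (-0.53) and Ube2c (-0.53) fell, and Ube2c did not go the same way in all 4 comparisons within a genotype.

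After 3 hr in culture, iTreg and Th0 arrays, both on the other chip, differed in 0 of 13417 probes (572 at an unadjusted p below 0.05; 4 were called when the 4 arrays of 3 hr were fitted alone). At that time the difference was -0.05 for Foxp3, 0.23 for Itgae and -0.01 for Skil.

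The last question was whether iTreg culture differed from the pulses by the same amount in both genotypes. The difference between KO and WT cells was called for 17 of 13113 probes (0.13%), 10 more positive (0.0763%) and 7 more negative (0.0534%) in KO cells, against 1166 at an unadjusted p below 0.05. Scaling to equal medians gave 8 positive and 12 negative, and cyclic loess 16 and 7. This test took the 1 hr and 3 hr arrays of a genotype as replicates, which gave its 2 residual degrees of freedom. Each call rests on 1 iTreg array per genotype, and the KO array is the one that stood apart. The count was 6, 29, 64 and 25 without the WT 1 hr, KO 1 hr, WT 3 hr and KO 3 hr array. For Gmfg, Ybx3, Chd4 and Polr1a the called probe was not the gene's brightest, and the brightest was not called.

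Egr1, an immediate early transcription factor that ERK induces, had 10.68 in the KO iTreg array, against 9.26 after 3 hr and 9.81 after 1 hr of TGF in KO cells. In WT cells it had 11.33 in iTreg culture, against 11.90 after either pulse. It was thus 1.14 higher in iTreg culture in KO and 0.57 lower in WT cells, and the KO level stayed below the WT level in each condition (interaction 1.71, SE 0.26, adjusted p = 0.0306). Pou6f1, a POU domain transcription factor, had 8.75 in KO iTreg cells, against 6.80 after 3 hr and 6.63 after 1 hr. In WT iTreg cells it had 6.82, against 6.46 after 3 hr and 6.30 after 1 hr (interaction 1.60, adjusted p = 0.0204). Socs2, a feedback inhibitor of STAT5 signals, had 12.22 in KO iTreg cells, against 11.98 after 3 hr and 12.00 after 1 hr. In WT iTreg cells it had 12.72, against 10.99 after 3 hr and 11.39 after 1 hr (interaction -1.30, adjusted p = 0.0492). Zbtb7a, a transcriptional repressor, had 6.97 in KO iTreg cells, against 8.30 after 3 hr and 8.46 after 1 hr. In WT iTreg cells it had 8.41, against 8.30 after 3 hr and 8.52 after 1 hr (interaction -1.41, adjusted p = 0.0306).
Cd27, a costimulatory receptor of resting T cells, differed by 0.68 in KO and -0.59 in WT cells (interaction 1.27). The median interaction of the 20 naive and quiescence genes was 0.52, against -0.01 over all genes, and Cd27 was their only call. Foxp3 and the other regulatory T cell genes were not called in this test, other than Socs2, which is also on that list.

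**Figure D4:**
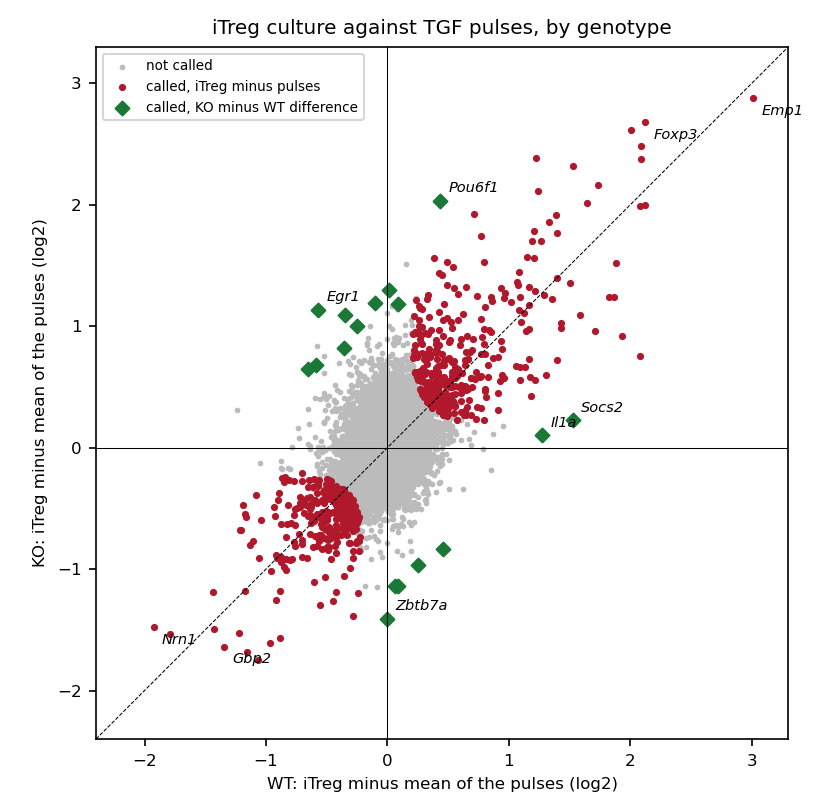
Difference of iTreg culture from the mean of the TGF pulses in WT (x axis) and KO cells (y axis), both log2, for every probe tested, with the line of equality dashed. Red points were called over both genotypes and green diamonds differ between them; Egr1 lay at -0.57 in WT and 1.14 in KO.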

How the data were processed

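RNA of 16 mouse CD4 T cell cultures was hybridised to Illumina bead arrays, with biotin-labelled cRNA made from Trizol-extracted RNA per the labels' protocols. The deposited table used here holds non-normalized probe intensity on a linear scale, 1 column per array, with no detection p-values or control probes. A second deposited table, the series matrix, has intensity values that the authors normalized (how is not given in the sources used here) and served as an alternative; each of the 16 arrays matched its own column of it best. The platform annotation gave 1 gene symbol to 23978 of the 25697 probes, several to 0 and none to 1719.

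After normexp background correction (offset 50), the 16 arrays were brought to equal quantiles and log2 values taken (limma 3.58.1, R 4.3.3). Background was a normal distribution at each array's mode of log2 intensity, and a probe above its 99th percentile was above background. The fit used the probes detected so by 2 or more of the 6 arrays (13113 probes, 8951 genes). Condition and genotype were additive terms (lmFit and eBayes, 2 residual and 8.49 prior degrees of freedom), and an interaction tested the difference between genotypes. P-values were adjusted over all kept probes (Benjamini-Hochberg). The number of arrays limits the precision. The procedure was tested on simulated data.

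Gene lists used the brightest kept probe of a gene and are described by counts and medians. The comparison, lists and genes were chosen with earlier results of these data known. Named are the 20 largest rises and falls among called probes of 1 direction in both genotypes, up to 6 called members a list with the largest differences, and Foxp3, Tbx21, Gata3, Ifng, Skil and Itgae. For 3 hr minus 1 hr, and for the difference between genotypes, the rule took up to 10 each way. Others (the remaining called list members, list members not called, and the mitosis genes named against 3 hr) were named after their values were seen. Alternatives were other background corrections, normalizations, filters, fits and priors, and leaving out arrays. Counts of list members without the KO iTreg array were added after the data were seen.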

Additional observations from a re-analysis of the deposited data

Results flagged for a closer look

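For 17 probes limma's test called a difference between KO and WT cells in how iTreg culture differed from the TGF pulses (adjusted p 0.0204 to 0.0492), with the 1 hr and 3 hr arrays of a genotype taken as replicates. The count was 0 to 64 under alternatives. Values are the log2 difference in KO minus that in WT cells, and each rests on 1 iTreg array per genotype. It was more positive in KO cells for Egr1 (1.71), Pou6f1 (1.60), Arhgef18 (1.44), the nuclear envelope protein Sun2 (1.30), Gmfg (1.30), Emc9 (1.28), Cd27 (1.27), Mgst2 (1.25), Rgcc (1.18) and Hsd11b1, which interconverts active and inactive glucocorticoids (1.09). It was more negative in KO cells for the cytokine Il1a (-1.17), Ybx3 (-1.20), the chromatin remodeller Chd4 (-1.21), the RNA polymerase I subunit Polr1a (-1.23), Nop9 (-1.29), Socs2 (-1.30) and Zbtb7a (-1.41). Il1a differed by 0.10 in KO and 1.27 in WT cells, and Sun2 by 1.20 in KO and -0.10 in WT cells. The other probes of Chd4 gave 0.40 and -0.05, and those of Polr1a 0.11 and -0.29, none of them called.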

How the results depend on the processing

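Of 111 alternative counts over all probes, 63 stayed within 1.5 times the reported count. For iTreg minus both pulses (637) the count was 1113 with all 10 day 1 arrays, 171 without genotype as a block, and 306 to 2029 with an array or pulse pair left out. For iTreg minus 1 hr (434) it was 745 with 10 day 1 arrays, 116 without the block (69.8% higher, against 57.4%), and 138 to 1644 with an array left out. For iTreg minus 3 hr (455) it was 701 with the 8 arrays of the chip, 929 with 10 day 1 arrays, 695 with all 16 arrays, 101 without the block, and 86 to 1959 with an array left out. For 3 hr minus 1 hr (11) it was 0 with no background correction (969 at an unadjusted p below 0.05), 1 at offset 16, 27 at equal medians (59.3% higher, against 81.8%), 26 with the 8 arrays of the chip, 41 with 10 day 1 arrays, 27 with all 16 arrays, 18 with a trended prior, 75 with array weights, 0 without the block (565), and 0 to 445 with an array left out. For the difference between genotypes (17) it was 0 with no background correction (1237), 0 at offset 16 (1061), 2 with the authors' values, 2 with no filter, 0 when all 6 arrays had to be above background (1013), 7 with the filter over 16 arrays, 48 with a trended prior, and 6 to 64 with an array left out. Its share of positive calls was 58.8%, against 40% at equal medians and 69.6% with cyclic loess. For 3 hr iTreg minus 3 hr Th0 (0) it was 4 with the 4 arrays alone. The cause of these shifts was not tested. None of the probes called in a comparison had the opposite sign under any alternative that tested it. The alternatives reuse the arrays on which the probes were called, so this agreement largely follows from the calls. Of 104 genes, the called ones named for the main comparison with Tbx21 and Skil, 37 kept their call, or its absence, under every alternative run, among them Emp1 (2.46 to 3.43), Foxp3 (2.12 to 2.68) and Itgae (0.90 to 1.59). No paired analysis was possible because the labels give no replicate numbers; genotype is the block. With 2 residual degrees of freedom and 1 array per genotype and condition, precision is limited by the number of arrays, and dim probes by their signal over background.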
